A study of Homo sapiens with 9 samples.

Results

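The response of accessible chromatin to low oxygen was followed in T47D cells that carried a control hairpin (shCtrl), by setting the regions called open in hypoxia against those called open in normoxia. The comparison used 6 of the 9 samples of the series, 3 in each group, and each group was represented by 1 list of regions. All regions of both lists were taken, 90962 for normoxia and 77451 for hypoxia, and 90885 and 77383 of them lay on chromosomes 1 to 22 and X and were analysed. T47D is an established human breast cancer line of luminal type that expresses the oestrogen receptor. Both groups had been infected with a lentivirus and selected with hygromycin or puromycin, so the normoxic cells carried a hairpin too. The groups differed in oxygen only, per the labels. How low the oxygen was, and for how long, is not given in the labels, nor whether samples of a group came from separate cultures.

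ATAC-seq marks open DNA with a transposase that inserts sequencing adapters where nucleosomes leave it accessible. Called regions are therefore mostly promoters and enhancers. When oxygen falls, the prolyl hydroxylases EGLN1, EGLN2 and EGLN3 stop marking the HIF alpha subunits for VHL, and HIF1A or EPAS1 pairs with ARNT on sites with the core ACGTG to switch on genes of glycolysis, pH control and vessel growth. HIF largely binds sites that are already open, and several histone and DNA demethylases are themselves enzymes that need oxygen.

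Most of what was open in hypoxia was also open in normoxia, while the normoxia list reached further. Of the 90885 normoxia regions, 18738 (20.6%, Wilson 95% interval 20.4 to 20.9) were touched by no hypoxia region, and of the 77383 hypoxia regions, 4979 (6.43%, 6.26 to 6.61) were touched by no normoxia region. An overlap of 1 bp counted as shared, and the intervals cover counting error only. With 1 list per group there was no spread between replicates, so no difference below could be tested and every value describes these 2 lists.

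The normoxia list was also the longer one. When the normoxia list was trimmed to the length of the hypoxia list by its −log10 q, 9364 normoxia regions (12.1%) and 9086 hypoxia regions (11.7%) were called in their own list only. Lists of equal length must give close counts, so the trimming could not show where the excess on the normoxia side came from. Its cause was not tested. Among the stronger 50% of each list by −log10 q, 271 of 45442 normoxia regions (0.596%) and 45 of 38691 hypoxia regions (0.116%) had no counterpart in the whole other list. The regions called on 1 side were thus almost entirely the weaker ones of their list. The median fold enrichment, a value the authors gave each region relative to its local background, was 3.06 for regions called only in normoxia and 4.70 for the normoxia regions that hypoxia shared. In hypoxia the medians were 3.06 and 4.43.

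Regions were also narrower in hypoxia. The 71541 regions that paired one-to-one had a median width of 579 bp in normoxia and 480 bp in hypoxia, and 73.5% of them (73.2 to 73.8) were narrower in hypoxia. A change of more than 1.5 times was seen as a narrowing in 12.3% of pairs and as a widening in 1.66%. The normoxia list covered 60.01 Mb and the hypoxia list 48.5 Mb, with 45.3 Mb in common. Of the 14.7 Mb open only in normoxia, 6.96 Mb lay in regions without a hypoxia counterpart and 7.77 Mb (52.7%) at the edges of shared regions. Splits and joins were few. In all, 374 normoxia regions touched several hypoxia regions, and 118 hypoxia regions touched several normoxia regions.

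Regions at gene starts were called in both lists more often than distal ones. A start was every RefSeq transcription start listed for a gene together with its 5′ end, or either end where the reference gave no strand. Within 1 kb of a start, 633 of 15073 normoxia regions (4.20%, 3.89 to 4.53) were not called in hypoxia. The share was 19.7% from there to 5 kb, 22.5% from 5 to 50 kb and 26.4% (25.9 to 26.9) further out. The hypoxia list had the same order at lower values, with 0.627% of regions at starts and 9.34% of those past 50 kb called in hypoxia only. In lists of equal length the totals of the 2 sides must be close. The shares were then 2.02% and 1.75% at starts and 16.7% and 16.1% past 50 kb, and the order with distance remained. This breakdown of the trimmed list was added after the values were seen.

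**Figure D1:**
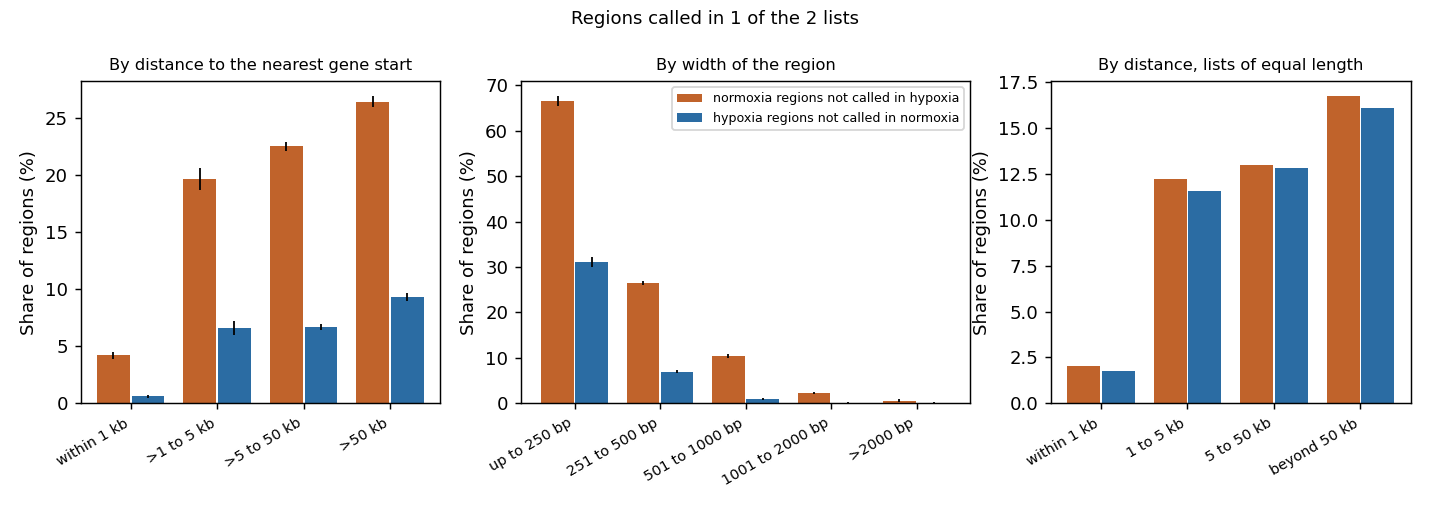
Share of regions (%) called in 1 list only, for normoxia regions (orange) and hypoxia regions (blue), by distance to the nearest gene start, by width, and by distance with the normoxia list trimmed to the length of the hypoxia list. Bars in the first 2 panels carry Wilson 95% intervals, and the share rises from 4.20% at starts to 26.4% beyond 50 kb for normoxia and falls with width.

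Width and strength moved with this pattern. Of normoxia regions up to 250 bp wide, 66.5% were not called in hypoxia, against 2.27% of those over 1 and up to 2 kb and 0.547% of wider ones. Starts differed from distal sites also among regions of similar strength. With the regions in 5 classes of fold enrichment, 27.8% of normoxia regions at starts and 60.1% of those past 50 kb were not called in hypoxia in the lowest class, and in the middle class the shares were 1.75% and 17.6%. Outside the starts, regions within a gene body (24.4%) and between genes (23.4%) were close to each other.

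Strength within the shared regions was compared by rank. Each of the 71541 pairs was given the percentile, 0 to 100, of its fold enrichment within its own list, and the difference is hypoxia minus normoxia. The middle 50% of differences ran from −5.56 to 6.93 points with a median of 0.74. A rise of over 20 points was seen in 3272 pairs (4.57%) and a fall of over 20 points in 4808 (6.72%). A pair ranked over 80 in normoxia cannot rise by that much. On this measure starts gained rank and the most distal regions lost it. The median difference was 2.91 points within 1 kb of a start, 1.28 from 1 to 5 kb, 0.25 from 5 to 50 kb and −0.67 further out. Falls of over 20 points made up 1.51% of pairs at starts and 10.5% of pairs past 50 kb. With pairs limited to those whose widths differed by under 25%, these shares were 1.12% and 7.33% and the medians 2.45 and −0.73.

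Of 19974 protein-coding genes, 14974 had a start called in normoxia and 14626 in hypoxia. For 417 genes (2.78% of those with a normoxia start) the start was called in normoxia only, and for 69 (0.472% of those with a hypoxia start) in hypoxia only. In lists of equal length these numbers were 219 and 166. At 46 of the 417 genes the normoxia region did touch a hypoxia region, whose nearest edge had withdrawn beyond 1 kb from the start, and at 371 no hypoxia region was there. Regions at starts called on 1 side were weak, with a median fold enrichment of 2.95 in normoxia and 2.96 in hypoxia.

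The genes with the strongest such regions, picked after their values were seen among those with no counterpart, are given as examples. In normoxia FASLG, the death ligand of T cells, had a fold enrichment of 5.12 over 305 bp. SERPINF1, which encodes the secreted inhibitor of vessel growth PEDF, followed with 5.10 over 401 bp. DDO, a D-aspartate oxidase, had 4.75, and KLK5, a secreted serine protease, had 4.42. In hypoxia FAM3B, a secreted cytokine-like protein, led with 6.003 over 386 bp at 843 bp from its start. FHL1, a LIM domain protein, had 3.77, and DNAH9, an axonemal dynein, 3.48.

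For 14453 genes a one-to-one pair lay at a start, and 74.0% of them ranked higher in hypoxia, with a median of 3.08 points and a middle range from −0.12 to 7.43. A rise of over 20 points was seen at 307 genes (2.12%) and a fall of over 20 points at 195 (1.35%). The counts depended on the value that was ranked. Ranked by −log10 q in place of fold enrichment, 53.6% of starts were higher in hypoxia with a median of 0.13, and the counts turned to 65 rises and 106 falls. Of the 307 rises 40 passed 20 points on both measures, and of the 195 falls 72 did. None of the 307 or of the 195 changed sign.

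The largest rises at starts were those of CSK, KNDC1 and HS3ST6. CSK, the kinase that holds Src family kinases inactive, went from rank 20.5 to 67.0 as its fold enrichment went from 3.40 to 5.49 and its width from 2086 to 1844 bp. KNDC1, an exchange factor for Ras in neurons, went from 20.7 to 66.2, and its region shrank from 1653 to 664 bp. HS3ST6, a heparan sulfate sulfotransferase, went from 12.5 to 58.0 with a shrinkage from 1746 to 623 bp. MRPL23, ZNF598, RNF114, TRAF2, PRSS3, PSTPIP2 and BLID completed the 10, with differences from 35.98 to 39.2 points. Only PRSS3, from 257 to 452 bp, and BLID, from 360 to 405 bp, were wider in hypoxia. By −log10 q, 4 of the 10 still rose by over 20 points: BLID (33.8), HS3ST6 (30.99), MRPL23 (22.7) and PRSS3 (36.1). The part of width in these rises was not tested. With the width limit of 25%, 3 of the 10 had a pair. CSK was then at 43.7 points, BLID at 35.6 and TRAF2, at another start, at −1.49.

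The largest falls exceeded the largest rises. SEMA3D, a secreted guidance protein, fell from rank 90.9 to 20.1 as its fold enrichment went from 7.90 to 3.22. PRKAR1A, a regulatory subunit of protein kinase A, fell from 76.7 to 16.5. COX7B2, a variant subunit of cytochrome c oxidase, fell from 70.7 to 15.2, and METTL24, a methyltransferase-like gene, from 82.2 to 30.1. LOC105375817, LOC101929773, TMEM31, TXLNB, C8orf89 and the shared start of LY75 and LY75-CD302 made up the rest, with differences of −46.9 to −56.2 points. All 10 also fell by over 20 points by −log10 q, from −32.7 for C8orf89 to −52.0 for SEMA3D. In all 10 the region was narrower in hypoxia, for instance 1098 against 801 bp at COX7B2. Both SEMA3D and PRKAR1A have several starts, and with the width limit of 25% another start's pair took their place, with differences of 0.72 and 5.35 points. The others had no pair under that limit.

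**Figure D2:**
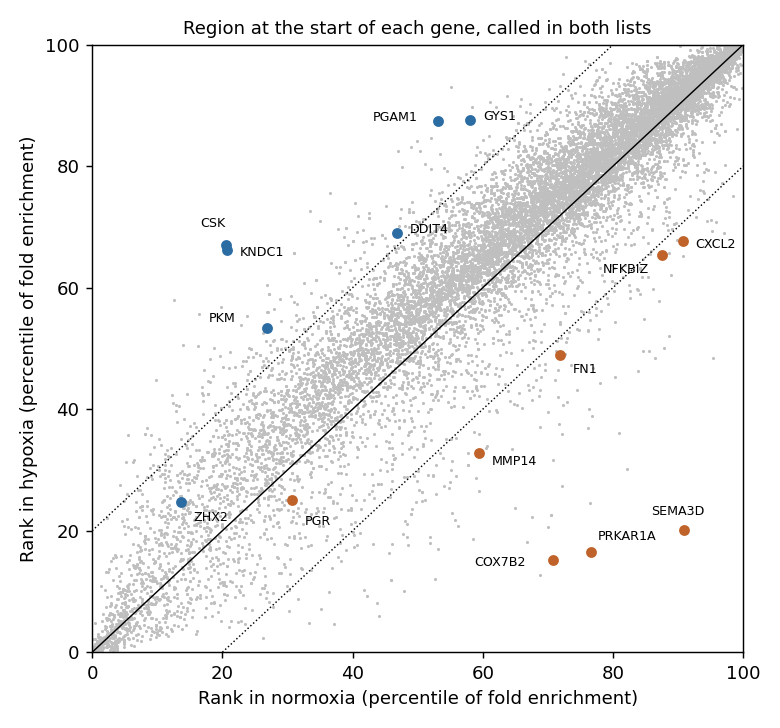
Rank of the region at the start of each gene in normoxia (x, percentile of fold enrichment) and in hypoxia (y), 1 point per gene for 14453 genes, with the line of equal rank and dotted lines at 20 points on either side. Named genes above the line are blue and those below it orange, and CSK (20.5 to 67.0) and SEMA3D (90.9 to 20.1) lie furthest out.

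Starts also differed by the base composition of the promoter. RefSeq (GRCh38.p14, whose coordinates hg38 shares) listed a 300-base promoter, 250 bases before and 50 after the start, for 15812 of the genes. In the 5 classes of G+C share, from lowest to highest, the start was called in normoxia only at 6.30%, 3.17%, 2.59%, 1.49% and 0.917% of the starts called in normoxia. The median rank difference went from 1.87 points in the class poorest in G+C to 4.06 in the richest, and falls of over 20 points from 3.58% to 0.90%. Promoters of starts called in normoxia only had a median of 7 CG pairs, against 26 where both lists called the start.

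**Figure D3:**
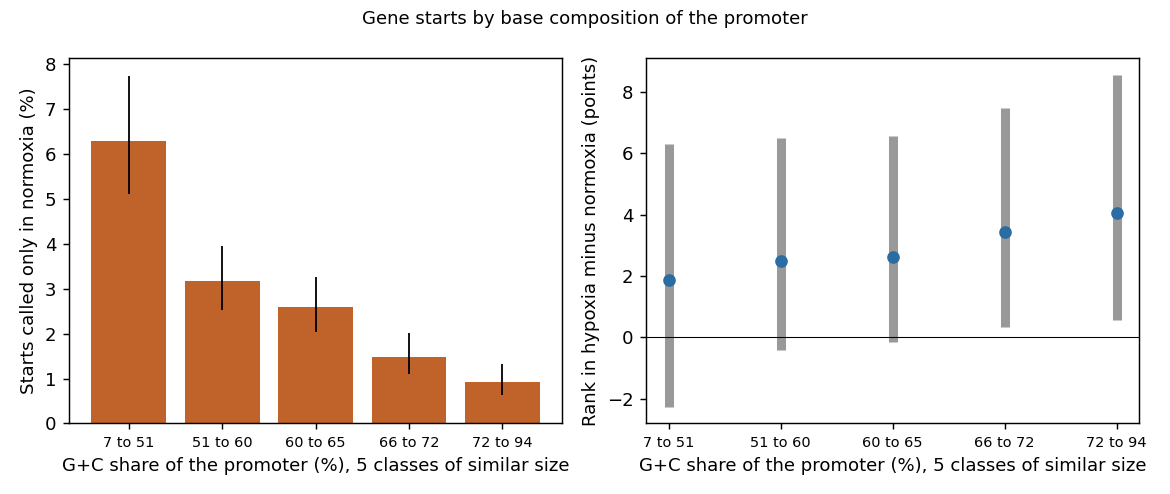
Share of normoxia starts not called in hypoxia (left, %, bars with Wilson 95% intervals) and rank difference (right, points, median as a dot and middle 50% as a bar) for promoters in 5 classes of G+C share. The share falls from 6.30% to 0.917% and the median rank difference rises from 1.87 to 4.06.

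Promoters from both ends of the rank scale show what these classes look like, with every CG pair in capitals. KNDC1 (chr10:133159969-133160268, plus strand, rank difference 45.5) held 37 CG pairs and RNF114, a ubiquitin ligase (chr20:49936147-49936446, plus strand, 39.1), held 31. COX7B2 (chr4:46909196-46909495, minus strand, −55.6) held 8. LY75-CD302 (chr2:159904707-159905006, minus strand, −48.0), whose product joins 2 immune receptors, held 32, so a promoter rich in CG pairs is also found among the largest falls.
KNDC1: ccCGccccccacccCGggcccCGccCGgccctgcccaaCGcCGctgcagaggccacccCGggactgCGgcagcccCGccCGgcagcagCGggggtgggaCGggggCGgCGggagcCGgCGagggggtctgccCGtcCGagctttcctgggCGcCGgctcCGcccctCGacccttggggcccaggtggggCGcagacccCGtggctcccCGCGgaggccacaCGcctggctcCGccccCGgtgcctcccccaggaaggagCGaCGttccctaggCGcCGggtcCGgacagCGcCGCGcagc
RNF114: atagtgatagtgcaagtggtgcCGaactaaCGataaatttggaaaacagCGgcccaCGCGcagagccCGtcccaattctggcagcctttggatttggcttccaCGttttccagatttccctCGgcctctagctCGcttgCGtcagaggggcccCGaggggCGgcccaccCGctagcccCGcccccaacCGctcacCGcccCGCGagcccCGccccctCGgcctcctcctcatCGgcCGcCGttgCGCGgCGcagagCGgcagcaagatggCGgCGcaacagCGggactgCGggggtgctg
COX7B2: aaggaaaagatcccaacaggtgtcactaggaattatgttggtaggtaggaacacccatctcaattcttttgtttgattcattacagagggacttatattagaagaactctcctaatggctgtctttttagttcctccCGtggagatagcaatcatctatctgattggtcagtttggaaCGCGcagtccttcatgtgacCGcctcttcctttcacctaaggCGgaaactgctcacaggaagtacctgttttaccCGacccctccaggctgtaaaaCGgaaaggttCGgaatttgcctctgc
LY75-CD302: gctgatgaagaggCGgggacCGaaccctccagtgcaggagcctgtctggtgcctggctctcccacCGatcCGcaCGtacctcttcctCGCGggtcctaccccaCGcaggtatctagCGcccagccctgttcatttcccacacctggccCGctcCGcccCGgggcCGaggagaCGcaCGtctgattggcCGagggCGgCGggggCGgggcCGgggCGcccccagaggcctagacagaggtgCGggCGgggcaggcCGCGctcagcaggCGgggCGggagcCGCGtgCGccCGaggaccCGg

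Short motifs were counted on both strands of the 15812 promoters. TGACTCA, the site of AP-1 (TGAGTCA on the other strand) was found in 3.62% of all promoters. It stood in 23 of 295 promoters of starts called in normoxia only (7.80%), in 2.73% of those called in both lists and in 6.18% of those called in neither. None of the 42 promoters called in hypoxia only held it. ACGTG, the core of the HIF site, was found in 23.7% of all promoters, 15.6% of those called in normoxia only and 4 of 42 called in hypoxia only. It stood in 26.0% of those called in both lists and in 16.9% of those called in neither. GGTCA, the core of sites of nuclear receptors such as ESR1, was found in 36.01% of all and 40.7% of those called in normoxia only. The share was near this in those called in hypoxia only (40.5%) and in neither list (41.5%), and was 34.2% in those called in both. Starts with ACGTG had a median rank difference of 3.02 points and those without it 3.06.

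Of 3 list genes whose start was called in normoxia only and whose promoter RefSeq listed, CXCL8 and CD68 held the AP-1 letters and ZEB2 did not. CXCL8 (chr4:73740319-73740618, plus strand), the neutrophil chemokine, and CD68 (chr17:7579388-7579687, plus strand), a macrophage protein of lysosomes, are printed with the AP-1 letters in capitals, on the minus strand for CD68. At CXCL8 these letters lie before the region called in normoxia (chr4:73740514-73740727) and outside it. DDIT4 (chr10:72273674-72273973, plus strand), the hypoxia-induced inhibitor of mTORC1, is printed with ACGTG in capitals.
CXCL8: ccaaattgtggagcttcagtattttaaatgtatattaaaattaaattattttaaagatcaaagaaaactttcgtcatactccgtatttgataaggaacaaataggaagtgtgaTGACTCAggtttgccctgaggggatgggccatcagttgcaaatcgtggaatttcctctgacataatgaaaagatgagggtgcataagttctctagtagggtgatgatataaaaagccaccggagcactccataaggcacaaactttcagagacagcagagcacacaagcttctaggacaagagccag
CD68: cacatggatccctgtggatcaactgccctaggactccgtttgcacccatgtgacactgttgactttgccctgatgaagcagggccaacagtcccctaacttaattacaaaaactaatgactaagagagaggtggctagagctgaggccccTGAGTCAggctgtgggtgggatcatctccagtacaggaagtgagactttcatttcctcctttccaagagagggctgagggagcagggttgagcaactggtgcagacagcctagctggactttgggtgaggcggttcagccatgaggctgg
DDIT4: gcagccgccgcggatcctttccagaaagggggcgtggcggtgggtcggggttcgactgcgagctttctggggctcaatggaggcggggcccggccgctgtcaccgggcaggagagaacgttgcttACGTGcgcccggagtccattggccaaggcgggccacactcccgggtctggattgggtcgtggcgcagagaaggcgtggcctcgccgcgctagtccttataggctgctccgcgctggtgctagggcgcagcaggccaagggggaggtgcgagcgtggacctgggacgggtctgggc

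Genes of glycolysis and glucose uptake had the same starts called in both lists, where 2.78% of normoxia starts over all genes were not called in hypoxia. Of 24 such genes 23 had a start called in both lists, and SLC2A3, the neuronal glucose transporter, had none in either. Among the 22 with a pair, 17 ranked higher in hypoxia and 5 lower, a share near the 74.0% of all genes, with a median of 4.21 points beside 3.08. No member fell by over 20 points, beside 1.35% of all genes, and 5 of the 22 rose by more than that, beside 2.12% of all genes. PGAM1, a phosphoglycerate mutase, rose from 53.1 to 87.4 with fold enrichments of 4.87 and 7.34 and widths of 1904 and 963 bp. GYS1, the muscle glycogen synthase, rose from 58.0 to 87.5 with widths of 1782 and 1207 bp. PKM, the pyruvate kinase, rose from 26.9 to 53.4 with widths of 1761 and 1087 bp.

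HK1 and ENO1 narrowed less. HK1, a hexokinase, rose from 31.3 to 55.5 and ENO1, an enolase, from 52.0 to 76.1. With the width limit of 25% their differences were 21.2 and 25.3 points. By −log10 q none of the 5 passed 20 points, with values from 4.69 for GYS1 to 6.84 for ENO1, and the median of the list was 1.43 beside 0.13 for all genes. Other members moved by less. PGK1, a phosphoglycerate kinase, was at 99.9 in both lists, and SLC2A1, the main inducible glucose transporter, at 53.3 and 53.4. LDHA, which makes lactate, stood at 67.8 and 74.0. ENO2, the neuronal enolase, was the lowest member and went from 64.3 to 49.2. Of 92 normoxia regions assigned to the list, each to the gene with the nearest start within 50 kb, 15 were not called in hypoxia (16.3%, beside 17.5% for all genes).

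The other HIF targets lay near the whole at their starts. Of 36 genes 35 had a start called in both lists. CA9, the tumour carbonic anhydrase that is among the most used markers of hypoxia, had no region assigned in either list. In 34 genes with a pair the median difference was 2.25 points, with 23 above 0 and 11 below, and DDIT4 alone passed 20 points, from 46.8 to 68.9 with widths of 2093 and 1377 bp. By −log10 q its difference was 4.25. VEGFA, the vessel growth factor, had 11 regions in each list, with 2 called in normoxia only and 1 in hypoxia only. Its start had ranks of 7.73 and 12.9. ADM, adrenomedullin, was at 4.21 and 4.40, NDRG1 at 79.8 and 82.1, and BNIP3, a mitophagy receptor, at 77.4 and 75.4. PLOD1, a collagen lysyl hydroxylase, was lowest with 83.6 and 69.9.

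The HIF core was found in many of these promoters. ACGTG stood in 17 of 29 listed promoters of the other HIF targets (58.6%) and in 10 of 23 of the glycolysis list (43.5%). Over both lists, 26 genes with ACGTG and a pair had a median difference of 3.29 points, and 1 of them, DDIT4, rose by over 20. In 23 without it the median was 0.24, and 5 rose by over 20. The median was thus higher with the core and the rises were more without it, and neither difference was tested.

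All 13 genes of oxygen sensing, the HIF subunits and the ZHX family had a start called in both lists, and none passed 20 points. VHL, which recognises hydroxylated HIF, came closest with ranks of 54.3 and 73.5. HIF1A was at 78.8 and 78.4, with 4 regions in normoxia and 2 in hypoxia. EPAS1, the second alpha subunit, was at 28.9 and 36.7, with 8 and 6 regions. EGLN1 was at 51.6 and 56.7 and EGLN3 at 89.5 and 88.0. ZHX2, the zinc finger and homeobox factor that the series silences in its other group, was at 13.6 and 24.7 here, with 10 and 9 regions.

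Luminal and oestrogen receptor genes lay near the whole in their starts and in the share of regions not called in hypoxia. Of 30 such genes 30 had a start called in normoxia and 29 in hypoxia, and over all genes 2.78% of normoxia starts were not called in hypoxia. The one lost was that of TFF1, the classic oestrogen-induced trefoil gene, whose region of 269 bp had a fold enrichment of 2.88. TFF3, its neighbour on chromosome 21, was the only member with a pair past 20 points, with ranks of 71.4 and 51.2, and by −log10 q its difference was −20.3. The median of the list was 2.496 points, and by −log10 q it was −2.19.

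PGR, the progesterone receptor, had 10 regions assigned in normoxia and 4 in hypoxia, with 6 called in normoxia only and none in hypoxia only. ESR1, the oestrogen receptor, went from 19 regions to 14, and within the span of its gene from 23 to 11. GREB1, an oestrogen-induced cofactor, went from 12 to 8. In lists of equal length 3 of the PGR regions and 3 of the ESR1 regions were still called in normoxia only. With assignment within 20 kb PGR had 1 such region and ESR1 had 3. RARA, the retinoic acid receptor alpha, had 8 regions in each list. KRT8, KRT18 and CDH1, which mark epithelium, kept the same number of regions. GATA3 had 10 in each list, with 1 called in normoxia only and 1 in hypoxia only. Over the list, 49 of 236 normoxia regions (20.8%) were not called in hypoxia, beside 17.5% for all genes. With assignment within 20 kb the shares were 15.8% and 15.0%.

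Genes of the mesenchymal state, invasion and basal cells leaned lower. Of 32 genes 23 had a start called in normoxia, and of the 22 with a pair 13 ranked lower in hypoxia, where 74.0% of all genes ranked higher, with a median of −1.61 points (−2.67 by −log10 q). MMP14, a membrane-bound metalloprotease, fell from 59.4 to 32.8 with widths of 479 and 376 bp. FN1, fibronectin, fell from 71.9 to 49.0 with widths of 1138 and 884 bp. By −log10 q they were at −17.3 and −19.9. ZEB2, a repressor of epithelial genes, lost its start region of 258 bp. This was 1 of the 23 normoxia starts of the list, beside 2.78% of normoxia starts over all genes. CD44, a hyaluronan receptor, went from 7 regions to 3. Over the list, 26 of 118 normoxia regions (22.03%) were not called in hypoxia, beside 17.5% for all genes. With assignment within 20 kb the shares were 23.9% and 14.99%. In lists of equal length they were 8.16% and 9.80%, so the larger share of the list did not remain. NRP1, a co-receptor for VEGF, was highest with 36.9 and 56.1.

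**Figure D4:**
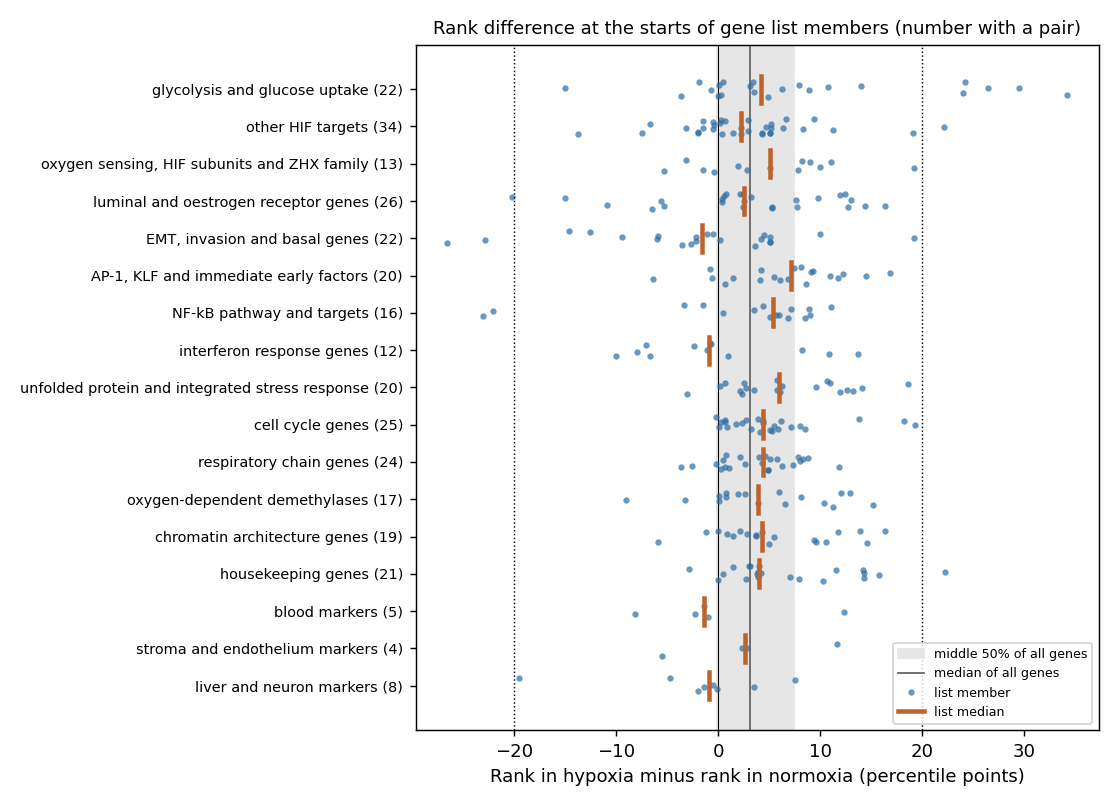
Rank in hypoxia minus rank in normoxia (percentile points) at the start of each member of 17 gene lists (blue dots; number with a pair in brackets), with list medians (orange) beside the median of 3.08 and the middle 50% of all genes (grey). Glycolysis genes reach 34.3, and MMP14, FN1, CXCL2, NFKBIZ and TFF3 lie below −20.

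The NF-kB list had a larger share of its regions called in normoxia only than all genes had, and ranked much as they did at starts. Of 20 genes 19 had a start called in normoxia and 17 of these in hypoxia, where 2.78% of starts over all genes were not. Of the 16 with a pair 12 ranked higher, near the 74.0% of all genes, with a median of 5.38 points (1.097 by −log10 q, beside 0.13 for all genes). The subunits NFKB1, RELA, RELB and REL were higher in hypoxia, by 5.11 to 11.1 points. CXCL2, a neutrophil chemokine, fell from 90.7 to 67.6, and NFKBIZ, a nuclear co-activator of inflammatory genes, from 87.5 to 65.4. With the width limit of 25% their differences were −27.3 and −26.0, and by −log10 q −14.8 and −9.36. The starts of CXCL8 and CCL2, chemokines of neutrophils and monocytes, were called in normoxia only, in regions of 214 and 687 bp with fold enrichments of 3.64 and 3.03. The list lost 23 of 78 normoxia regions (29.5%, beside 17.5% for all genes), 6 of them at NFKBIA, the inhibitor IkB alpha, which went from 13 regions to 7. In lists of equal length the share was 17.2% beside 9.80%. Of 14 blood markers 7 had a start called in normoxia and 5 in hypoxia, beside the 2.78% of normoxia starts over all genes that were not called in hypoxia. The difference was that of CD4 and CD68, and the CD4 region lay outside the span of that gene. The part of blood markers in the NF-kB values was not tested.

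Beside a median of 3.08 points for all genes, with a middle range up to 7.43, the lists of growth, stress and other genes ran from −0.92 to 7.13. AP-1, KLF and immediate early factors had a median of 7.13 points over 20 genes, with FOSB from 11.1 to 27.96 and JUNB from 16.3 to 30.7, and by −log10 q the median was 0.97. The unfolded protein and stress response genes had 5.92 over 20 genes, with PPP1R15A, which restores translation, from 40.0 to 58.6. Of 25 cell cycle genes 24 ranked higher, with a median of 4.39, and by −log10 q the median was −0.07. Housekeeping genes had 4.01 over 21 genes, with POLR2A, the catalytic subunit of RNA polymerase II, from 34.5 to 56.8, and chromatin architecture genes 4.32 over 19. Oxygen-dependent demethylases had 3.92 over 17 genes, from TET3 at −9.08 to TET2 at 15.2 points. Interferon response genes had −0.92 over 12, with IFIT3 lowest at −10.1.

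Genes of the respiratory chain had few regions to lose. Of 48 normoxia regions assigned to 25 genes 2 were not called in hypoxia (4.17%), and the median rank difference was 4.42 points over 24 genes.

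The labelled cell type was checked against markers of luminal cells and of other cells. All 10 luminal markers had an open start in both lists, and the basal markers KRT5, KRT14 and TP63 had none in either. Of 14 blood markers 7 had an open start in normoxia and 5 in hypoxia, with PTPRC, MS4A1, CSF1R, LYZ, HBB and NKG7 among those in neither. The starts of CD4 and CD68 were called in normoxia only, in regions with fold enrichments of 2.61 and 2.23. CD4 had no listed start, and its region lay near an end of the gene but outside its span. That region was assigned to another gene, so it is not shown to be a start of CD4. Stroma and endothelium markers had 4 of 12 in each list, and liver and neuron markers 8 of 10, without ALB and TTR. Over all genes a start was called for 74.97% in normoxia and 73.2% in hypoxia. Liver and neuron markers lay above these shares too, so open starts alone could not decide the cell type.

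Some loci held many regions that were called in normoxia only. Of 17618 genes with a region in normoxia, 6881 (39.1%) had at least 1 that hypoxia lacked, and of 17311 with a region in hypoxia, 2261 (13.1%) had at least 1 that normoxia lacked. PRLR, the prolactin receptor, led with 11 of its 25 normoxia regions and no region gained. PPP2R2C, a regulatory subunit of protein phosphatase 2A, had 10 of 27, also with none gained. RGS3, a regulator of G protein signalling, had 8 of 20 and ARHGAP32, a GTPase-activating protein, 8 of 21. NFIB, a nuclear factor I gene, went from 12 regions to 5, and ATXN2, an RNA-binding protein, from 13 to 6. THSD4, an extracellular matrix gene, went from 15 to 8. In all, 13 genes lost 7 or more, among them DLG2, SEPTIN9 and RBFOX3. With assignment within 20 kb PRLR had 3 normoxia-only regions and no longer led, beside 8 for PPP2R2C and 7 for RGS3, and THSD4, NFIB and RBFOX3 had 3 each. In lists of equal length PRLR, PPP2R2C and DLG2 had 5, 6 and 6 normoxia-only regions and ATXN2 had 1.

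Hypoxia-only regions were fewer per gene. No gene had more than 4, and 7 genes had that many: ETS1, RAPGEF4, NTM, CDH4, TMEM132B, FAR2 and LOC101929601. ETS1, a transcription factor of vessel growth and invasion, had 17 regions in normoxia and 18 in hypoxia. RAPGEF4, an exchange factor driven by cyclic AMP, went from 9 to 13 assigned regions with none of these lost. Within the span of its gene it went from 13 to 12, with 2 called in normoxia only and 1 in hypoxia only. FAR2, a fatty acyl reductase, went from 3 to 6 while its start fell from rank 70.8 to 31.6. CDH4, R-cadherin, had 4 hypoxia-only regions and lost the call at a start.

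The strongest region without a normoxia counterpart stood apart. It spanned 200 bp at chr2:90173338-90173537, 185782 bp from the nearest start, that of LOC124905368, and its fold enrichment of 24.8 was higher than that of 99.99% of the hypoxia list. Whether reads can be placed with confidence there was not tested. The next had 6.63 and lay outside genes, 150903 bp from the start of SPTLC3, which makes sphingoid bases. The third lay 17894 bp from SRD5A3, a gene of dolichol synthesis, with 6.17. In normoxia the strongest had 7.25 and lay 174250 bp from the nearest start, that of ZNG1F. ZNG1F is 1 of a family of near-identical genes among which reads are hard to place. The next were in CACNA1C, a calcium channel gene (7.17), in ZNF736 (6.96) and near KCNK5, a potassium channel gene (6.82).

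Runs of consecutive regions called in 1 list mostly held 1 region, with 11379 such runs for normoxia and 4217 for hypoxia. Runs of 2 numbered 2410 and 293. Whether longer runs were more frequent than the shares alone would give was not tested. The longest runs of consecutive normoxia regions without a hypoxia counterpart held 8 regions each. The first covered 154 kb of chromosome 15 in THSD4 and the other 735 kb of chromosome X around ITM2A and TBX22. A run of 7 lay over 84.9 kb at XYLT1, a xylosyltransferase. In the other direction the longest run held 7 regions on chromosome 16 without a gene, followed by runs of 5 at NTM and at VPS8. Fold enrichment in these runs did not pass 4.64. In lists of equal length the order turned, with longest runs of 6 regions for normoxia and 9 for hypoxia.

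Chromosomes differed less than distance classes did. The share of normoxia regions not called in hypoxia ran from 13.9% (12.8 to 15.1) on chromosome 19 to 23.3% (22.2 to 24.6) on chromosome 10. Chromosome 19 also had the most regions at starts, 29.3% beside 13.0% on chromosome 10, and with starts left out its share was 18.1% beside 26.2%. The share of hypoxia regions not called in normoxia ran from 3.22% on chromosome 19 to 8.10% on chromosome 8. All 23 chromosomes had the larger share on the normoxia side, and in lists of equal length 11 did.

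**Figure D5:**
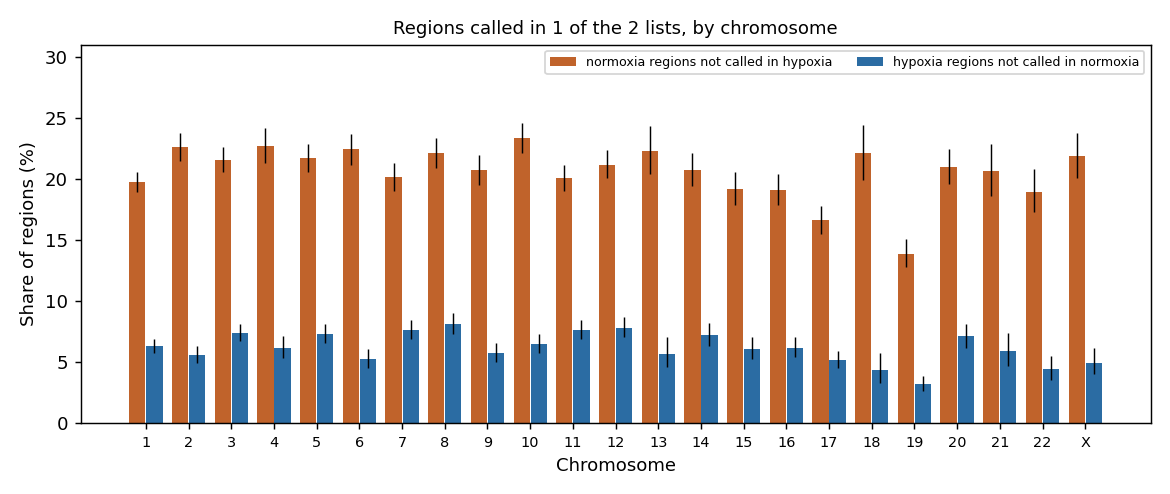
Share of regions (%) called in 1 list only on each chromosome, for normoxia (orange) and hypoxia (blue), with Wilson 95% intervals. Chromosome 19 is lowest in both, at 13.9% and 3.22%.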

How the data were processed

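ATAC-seq regions of T47D cells with shCtrl in normoxia and in hypoxia were compared, 1 list per group of 3 samples; the shZHX2 list was not used here. The submitters' processing notes name FastQC, Bowtie2, SAMtools, MACS2 and hg38 and give neither settings nor versions. No source used here says how 3 samples became 1 list. Each region carries the authors' score, their fold enrichment (a ratio to local background) and their −log10 q, all as deposited. The number of reads behind a list is not known. Fold enrichment and −log10 q were used only within a list, to rank or trim regions.

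Regions on chromosomes 1 to 22 and X were overlapped (1 bp) and paired, and pairs were ranked by fold enrichment in each list (0 to 100). Gene positions and promoters came from RefSeq GRCh38.p14 tables, without exons. Starts of 15812 genes with a strand and both ends of the other 4162 were used, with a window of 1 kb and assignment within 50 kb. All 348 genes of 17 lists matched. No file holds values per sample, so nothing was tested. Wilson 95% intervals cover counting error. Overlap, pairing and ranks were tested on simulated data. Python 3.11.15, numpy 2.4.6, pandas 2.3.3, scipy 1.17.1 and matplotlib 3.10.9 were used.

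The comparison and the gene lists were chosen with earlier results of these data known. Genes are named by rule: the 10 with most regions called in 1 list, those nearest the strongest such regions, the 10 largest rank rises and falls at starts, list members with a start called in 1 list or with the largest rank differences, genes in the longest runs, and ZHX2, HIF1A, EPAS1, VEGFA, CA9, ESR1 and PGR. Other list members are named to show a list's spread and were chosen after their values were seen. Alternatives tried were an overlap of 50% of the shorter region, only the stronger 50% of each list, a normoxia list trimmed to the hypoxia length, −log10 q as the ranked value, pairs whose widths differed by under 25%, a window of 2.5 kb, an assignment distance of 20 kb and, added later, only genes with a listed start.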

Additional observations from a re-analysis of the deposited data

How the results depend on the processing

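No paired analysis was possible because each group has 1 list and no values per replicate. Leaving out a replicate could not be run for the same reason. The depth of the lists is unknown, and it limits every count of regions called in 1 list. Regions called only in normoxia and only in hypoxia numbered 18738 and 4979. They numbered 9364 and 9086 with the normoxia list trimmed by −log10 q, 11882 and 11627 with it trimmed by fold enrichment, and 271 and 45 among the stronger 50% of each list. With the normoxia list trimmed, both lists have equal length and the 2 counts must be close. Trimmed by −log10 q, starts called only in normoxia and only in hypoxia went from 417 and 69 to 219 and 166, genes with such regions from 6881 and 2261 to 4080 and 3842, and chromosomes with the larger share in normoxia from 23 to 11. With only genes that have a listed start, 42 starts were called in hypoxia only, and with 20 kb, 1442 genes had a hypoxia-only region. Ranked by −log10 q, 3163 pairs fell by over 20 points, and 65 gene starts rose and 106 fell. With widths that differed by under 25%, 1283 pairs rose and 2224 fell by over 20 points, and 125 gene starts rose; fewer pairs entered. The sign turned for the medians of the luminal list (−2.19) and the cell cycle list (−0.0657) by −log10 q and of liver and neuron markers (0.0453) with the width limit, and, where the width limit left another start's pair, for PRKAR1A (5.35), SEMA3D (0.72) and TRAF2 (−1.49). Otherwise the cause was not tested. An overlap of 50% and a window of 2.5 kb changed no count of regions, pairs or starts by over 1.5 times.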
